A study of Mus musculus with 12 samples.

Results

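Hippocampal RNA from mice carrying both the 5xFAD and the Ulk1OV labels (5xFAD;Ulk1OV) was set against RNA from mice with Ulk1OV alone, so that both groups shared the Ulk1OV background and differed in 5xFAD. The comparison rests on 6 of the 12 RNA-seq libraries, 3 in each of its groups. The other 6 libraries, 3 from 5xFAD and 3 from wild-type (WT) mice, share no library with it and served to set the 5xFAD difference without Ulk1OV beside it. The labels give the genotype as FAD gene plus ULK1 overexpression, ULK1 overexpression, FAD gene and WT, name hippocampal tissue, and give no strain, sex, age or drug treatment. Neither the promoter behind Ulk1OV nor the number of founder lines is stated in the sources used here. Nothing in the labels says that each replicate was its own animal. The p-values therefore speak of the spread between libraries, part of which may be technical.

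5xFAD mice express mutant human amyloid precursor protein and a mutant human presenilin in neurons from Thy1 promoter cassettes, and form amyloid plaques. Microglia that gather at plaques lose part of their resting programme and turn on a known set of lysosomal, lipid and phagocytic genes, Trem2 and Cst7 among them. ULK1 is the kinase that starts autophagy, the pathway by which cells enclose and digest their own proteins and organelles in lysosomes.

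Library totals ran from 16149992 to 18547132 counts. Each pair of replicates within the 2 groups differed beyond sampling noise (chi-square over its degrees of freedom, 6.78 to 27.5). Ulk1, the overexpressed gene, had 97.1, 98.5 and 85.1 CPM (read counts scaled to library size) in 5xFAD;Ulk1OV and 102, 87.7 and 84.6 CPM in Ulk1OV. The groups overlapped in it, and its log2 fold change was 0.03 ± 0.11 (SE, adjusted p = 0.889). WT libraries had 74.1 to 81.8 CPM of Ulk1. Microglial (P2ry12, Tmem119), astrocytic (Gfap, Aqp4) and granule cell (Prox1) markers were present in all 6 libraries. One library went against its label. App had 1310 CPM and Prnp 954 CPM in the library labelled 5xFAD;Ulk1OV replicate 3, which placed it among the Ulk1OV libraries in both genes. Results are therefore given with all libraries and again without that library, which leaves 2 libraries against 3. A gene is said to rise or fall where the quasi-likelihood test of edgeR gave an adjusted p under 0.05 (Benjamini-Hochberg, over all genes tested). Where groups are said not to overlap, that is a description only. With 3 libraries against 3 the exact two-sided permutation p is no lower than 0.1. The share of all tested genes whose groups did not overlap is not given here.

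App and Prnp set 2 of the 3 5xFAD;Ulk1OV libraries apart from Ulk1OV. App, the amyloid precursor protein gene, which may also take reads of the human transgene, had 2590 and 2200 CPM in 5xFAD;Ulk1OV replicates 1 and 2, against 1490, 1240 and 1380 CPM in Ulk1OV. With all libraries the log2 fold change was 0.57 ± 0.18 (SE, adjusted p = 0.0745). Prnp, which encodes the prion protein, had 2200 and 2070 CPM in 5xFAD;Ulk1OV replicates 1 and 2, against 952, 972 and 1020 CPM in Ulk1OV. It rose by 0.83 ± 0.22 with all libraries (SE, adjusted p = 0.0457), and did not pass after a correction of the libraries for base composition and transcript length, described below (adjusted p = 0.0782). The library labelled replicate 3 was set aside for its low App and Prnp, so their log2 fold changes without it, 0.82 for App and 1.14 for Prnp, are given as a description with no test. Thy1, whose promoter drives the 5xFAD transgenes, had 606, 595 and 538 CPM in 5xFAD;Ulk1OV and 626, 610 and 581 CPM in Ulk1OV, groups that overlapped (adjusted p = 0.716). Thy1 thus did not set the groups apart where Prnp did, and whether the line is as labelled was not tested.

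Lamr1-ps1, a processed pseudogene of the laminin receptor gene, followed App and Prnp. It had 14.8 and 9.8 CPM in 5xFAD;Ulk1OV replicates 1 and 2, against 0 CPM in the library labelled replicate 3 and in the 3 Ulk1OV libraries. Over the mean of replicates 1 and 2 it was at least 72.6-fold higher than 3 counts per library would give. On GRCm38 it lies on chromosome 2 at 131904086 to 131904959, with 4968 bases between its end and the start of Prnp at 131909928. The 5xFAD libraries without Ulk1OV had 17.2, 12.2 and 11.5 CPM of it and the WT libraries 0 CPM. The deposited counts could split reads between this pseudogene and its parent gene, so its level is uncertain.

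**Figure D1:**
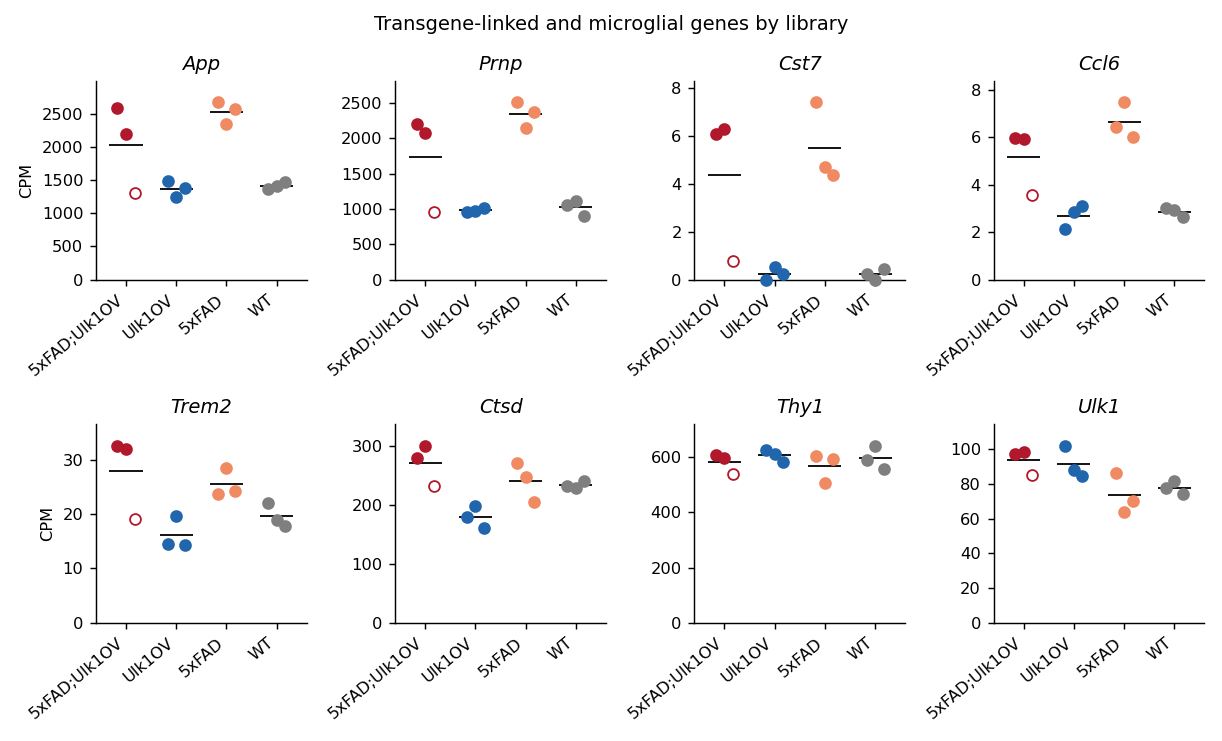
CPM of 8 genes in each library of the 4 groups (points), with the group mean over 3 libraries as a line; the open point is the library labelled 5xFAD;Ulk1OV replicate 3. In App, Prnp and Cst7 the open point lies near the Ulk1OV and WT libraries and apart from the other 5xFAD;Ulk1OV libraries, while Thy1 and Ulk1 overlap between 5xFAD;Ulk1OV and Ulk1OV.

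With all 6 libraries, 632 genes rose in 5xFAD;Ulk1OV (3.67% of 17227 tested) and 419 fell (2.43%). Without the library labelled replicate 3, 947 genes rose (5.38% of 17603 tested) and 632 fell (3.59%). These shares are the background for the list counts below. The 2 fits shared 874 genes, 83.2% of the first set and 55.4% of the second. These counts rested on single libraries. From all libraries, edgeR called 0 genes without 5xFAD;Ulk1OV replicate 1 (3185 at an unadjusted p under 0.05), 0 without replicate 2 (3040) and 0 without Ulk1OV replicate 3 (2958), 386 without Ulk1OV replicate 1 and 1629 without Ulk1OV replicate 2. With the library labelled replicate 3 already left out, 37 genes were called without 5xFAD;Ulk1OV replicate 1 and 17 without replicate 2, 214 without Ulk1OV replicate 3, 1087 without Ulk1OV replicate 1 and 2199 without Ulk1OV replicate 2. A fit of only the 6 libraries called 430 genes, and there Prnp, Ccl6, Trem2, Spp1, Hsp90b1, Pdia3, Dnajb9, Slc7a11, Hspa8, Hsp90aa1, Insig1, mt-Co1, Rb1cc1, Col1a1 and Kcne4, described below, did not pass.

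Fold changes also moved with the base composition of the transcripts. The tested genes were split into 5 equal bins. In the bin with the highest GC content the median log2 fold change was 0.24 with all libraries and 0.28 without the library labelled replicate 3, and 367 of the 632 and 544 of the 947 rising genes lay there. In the bin with the lowest GC content the medians were -0.20 and -0.21. With all libraries the bin of shortest transcripts had a median of 0.10 and the bin of longest -0.10. After a correction of each library for both properties, 372 genes were called with all libraries (191 rising, 181 falling) and 716 without the library labelled replicate 3 (360 rising, 356 falling). Out of 17227 and 17603 genes tested, these are the background for the corrected list counts below. A cause for the trend was not tested.

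**Figure D2:**
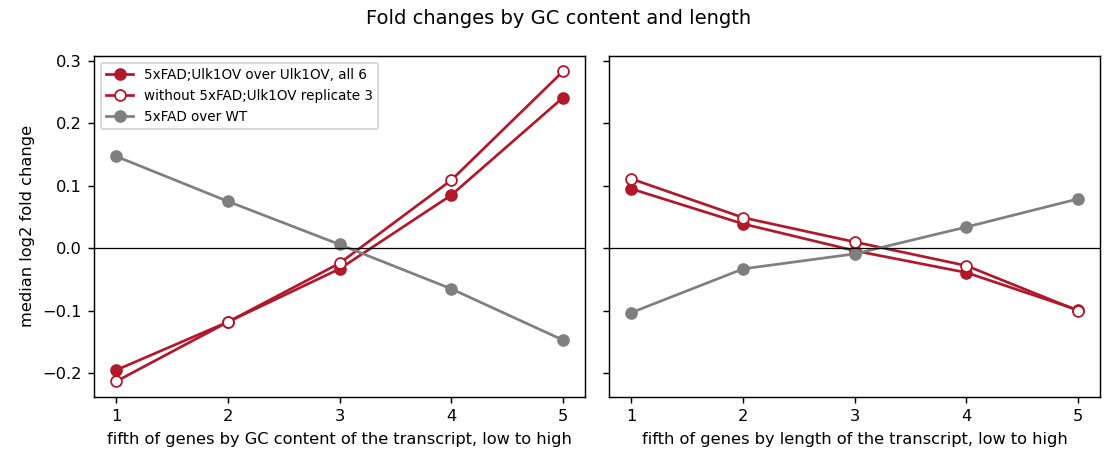
Median log2 fold change (y axis) in 5 equal bins of the tested genes ordered by GC content (left) or length (right) of the transcript, for 5xFAD;Ulk1OV over Ulk1OV with all libraries (filled red), without the library labelled replicate 3 (open red), and for 5xFAD over WT (grey). The red lines climb with GC content, to 0.24 and 0.28 in the highest bin, and the grey line goes the other way, to -0.15.

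Plaque-associated microglial genes that passed the test all rose. Of 30 tested members 6 rose and 0 fell with all libraries (median log2 fold change 0.37, against -0.01 over all genes tested), and of 31 tested 10 rose and 0 fell without the library labelled replicate 3 (median 0.53, against 0.00). After the correction for GC content and length 2 and 7 rose. Cst7, which encodes the protease inhibitor cystatin F, had 6.09 and 6.29 CPM in 5xFAD;Ulk1OV replicates 1 and 2 and 0.779 CPM in the library labelled replicate 3, against 0, 0.531 and 0.218 CPM in Ulk1OV. It rose by a log2 of 4.59 ± 0.68 without that library (SE, adjusted p = 0.00541) and by 4.08 ± 0.88 with it (SE, adjusted p = 0.0218). All 3 5xFAD;Ulk1OV libraries lay above the Ulk1OV libraries. For the library labelled replicate 3 the gap was small, 0.779 against 0.531 CPM in Ulk1OV replicate 2. In these 2 libraries 3 counts make 0.168 and 0.17 CPM.

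Trem2, a lipid receptor of microglia, had 32.6 and 31.9 CPM in 5xFAD;Ulk1OV replicates 1 and 2 and 19.1 CPM in the library labelled replicate 3, against 14.5, 19.7 and 14.4 CPM in Ulk1OV. The library labelled replicate 3 fell within the Ulk1OV range. Trem2 rose by 1.01 ± 0.15 without it (SE, adjusted p = 0.00582) and by 0.78 ± 0.19 with it (SE, adjusted p = 0.033). The chemokine gene Ccl6 had 5.98, 5.91 and 3.56 CPM in 5xFAD;Ulk1OV and 2.12, 2.83 and 3.11 CPM in Ulk1OV, and rose in both fits, by 1.16 ± 0.22 without the library labelled replicate 3 (SE, adjusted p = 0.0117). Ctsd, the lysosomal protease cathepsin D, had 279, 300 and 231 CPM in 5xFAD;Ulk1OV and 179, 198 and 160 CPM in Ulk1OV, groups that did not overlap. It rose by 0.71 ± 0.12 without that library (SE, adjusted p = 0.00814).

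Spp1, which encodes osteopontin, had 35.5, 45.5 and 12.3 CPM in 5xFAD;Ulk1OV and 8.11, 5.66 and 11.8 CPM in Ulk1OV, and Ch25h, which makes 25-hydroxycholesterol, had 1.17, 1.07 and 0.39 CPM against 0.062, 0.236 and 0.163 CPM in Ulk1OV. Both rose in both fits, Ch25h from Ulk1OV values near 3 counts per library (0.162 to 0.186 CPM). The lysosomal genes Ctsz and Cd68 and the MHC class II chaperone gene Cd74 rose without the library labelled replicate 3, by 0.53, 0.54 and 1.56, and did not pass with it. After the correction Cst7 and Ccl6 passed in both fits, Trem2, Ctsd, Spp1 and Ch25h passed without that library but not with it, and Ctsz, Cd68 and Cd74 passed in neither. Clec7a, the beta-glucan receptor dectin-1, had 3.69 and 2.5 CPM in 5xFAD;Ulk1OV replicates 1 and 2, against 1.31, 1.36 and 1.47 CPM in Ulk1OV, and without that library it did not pass (adjusted p = 0.0558), though it passed after the correction (adjusted p = 0.0418). With all libraries its adjusted p was 0.205, and 0.181 after the correction. Of 18 homeostatic microglial genes, 0 rose in either fit, and 1 fell with all libraries, against 0 called after the correction. That gene was the purinergic receptor P2ry12, with 50.1, 46.1 and 46.0 CPM in 5xFAD;Ulk1OV and 63.4, 68.5 and 71.6 CPM in Ulk1OV (log2 fold change -0.52 ± 0.12, SE, adjusted p = 0.029 with all libraries and 0.0513 without the library labelled replicate 3). After the correction for GC content and length its adjusted p was 0.109. In bulk tissue, fewer cells of a type and less RNA per cell cannot be told apart.

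Of the complement and antigen presentation genes, those that passed the test rose. Of 13 complement genes 0 were called with all libraries (median 0.25), and 3 rose without the library labelled replicate 3 (median 0.34). Among these were C1qa, a subunit of the complement trigger C1q, and Serping1, the C1 inhibitor. C1qa had 100, 104 and 79.6 CPM in 5xFAD;Ulk1OV and 69.6, 76.2 and 66.5 CPM in Ulk1OV, groups that did not overlap. Serping1 had 19.5, 25.5 and 10 CPM in 5xFAD;Ulk1OV and 9.36, 10.6 and 7.36 CPM in Ulk1OV, and the library labelled replicate 3 lay inside the Ulk1OV range. Neither passed after the correction. Of 19 MHC class I and II genes 3 rose with all libraries (median 0.81) and 7 without that library (median 0.96). H2-T23 had 14.1, 16.5 and 12.8 CPM in 5xFAD;Ulk1OV and 6.99, 7.49 and 6.70 CPM in Ulk1OV, and H2-D1, a classical class I heavy chain, had 65.9, 59.7 and 56.9 CPM against 40.4, 44.2 and 31.2 CPM in Ulk1OV. In both genes all 5xFAD;Ulk1OV libraries lay above all Ulk1OV libraries. After the correction 1 complement gene rose in each fit. The 2 and 3 MHC genes that rose after it were H2-T23 and H2-D1, joined by H2-Eb1 without that library. Border macrophage and leukocyte markers were positive in 11 of 11 tested members with all libraries (median 0.89), with 0 called in either fit, before or after the correction, and their part in the MHC values was not tested. Their summed level was 15.1 to 28.3 CPM in 5xFAD;Ulk1OV and 12.3 to 18.2 CPM in Ulk1OV.

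Chaperones of the endoplasmic reticulum (ER) fell where they passed the test. These proteins fold secreted and membrane proteins, and their genes are induced through the unfolded protein response when folding lags. The list also holds genes of that response that are not chaperones, such as the transcription factor gene Xbp1 and the ubiquitin ligase gene Syvn1. Of 20 listed genes tested 0 rose and 4 fell with all libraries (median -0.26). Without the library labelled replicate 3, 0 rose and 9 fell (median -0.39). After the correction for GC content and length 3 and 11 fell. Hspa5, the major ER chaperone BiP, had 231 and 236 CPM in 5xFAD;Ulk1OV replicates 1 and 2 and 371 CPM in the library labelled replicate 3, against 409, 413 and 462 CPM in Ulk1OV. All 5xFAD;Ulk1OV libraries lay below the Ulk1OV libraries. Hspa5 fell by 0.86 ± 0.15 without that library (SE, adjusted p = 0.00925), while with it the log2 fold change was -0.62 ± 0.18 (SE, adjusted p = 0.0564).

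Hsp90b1, the ER form of the HSP90 chaperone, had 167, 184 and 251 CPM in 5xFAD;Ulk1OV and 300, 298 and 332 CPM in Ulk1OV, and fell in both fits, by 0.81 ± 0.10 without the library labelled replicate 3 (SE, adjusted p = 0.00302). Pdia3, a disulfide isomerase for glycoproteins, had 190, 198 and 256 CPM in 5xFAD;Ulk1OV and 287, 305 and 319 CPM in Ulk1OV. The secreted ER factor Manf had 34.4, 40.9 and 46.9 CPM in 5xFAD;Ulk1OV and 56.5, 60.9 and 63.4 CPM in Ulk1OV. Neither gene's groups overlapped, and both fell in both fits, with and without the correction, as did Hsp90b1. Dnajb9, an ER cochaperone, fell in both fits and passed in neither after the correction (adjusted p = 0.0933 with all libraries and 0.181 without the library labelled replicate 3). Pdia4, Calr, Dnajc3 and Xbp1 fell without the library labelled replicate 3, by 0.69, 0.67, 0.64 and 0.41. The summed level of the list was 2080, 2200 and 2770 CPM in 5xFAD;Ulk1OV and 2990, 3050 and 3240 CPM in Ulk1OV, beside 2110 to 2300 CPM in 5xFAD and 2030 to 2310 CPM in WT. The Ulk1OV libraries were thus the highest of the 12 in this list.

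Promoters of some genes of this group hold the ER stress response element, which binds the factors of the unfolded protein response together with NF-Y. It was searched as CCAAT, 9 bases of any kind and CCACG, on either strand, in the RefSeq promoter windows of GRCm38.p6, which run from 250 bases before to 50 after each gene's start. The element was found in 8 of the 18 genes of the list that matched a window (44.4%), against 37 of 27025 genes with a window (0.137%). It was found in 4 of the 8 matched genes that fell without the library labelled replicate 3 and in 4 of the other 10, so that it did not separate the members that fell. The list was drawn from known members of this response, so its share of promoters with the element is a description. The 250 bases before the start are shown for 3 chaperones that fell without the library labelled replicate 3, 5′ to 3′ on the gene's strand, with CCAAT and CCACG, or their reverse complements ATTGG and CGTGG, in capitals. They lie at chr2:34771840-34772089 (plus strand) for Hspa5, chr10:86705445-86705694 (minus strand) for Hsp90b1 and chr14:118937682-118937931 (plus strand) for Dnajc3.
Hspa5: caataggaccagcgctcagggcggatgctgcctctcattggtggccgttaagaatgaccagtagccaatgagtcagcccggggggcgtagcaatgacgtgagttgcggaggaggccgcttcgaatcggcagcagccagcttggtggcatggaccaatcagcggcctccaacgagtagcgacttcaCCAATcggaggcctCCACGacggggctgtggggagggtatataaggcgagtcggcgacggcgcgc
Hsp90b1: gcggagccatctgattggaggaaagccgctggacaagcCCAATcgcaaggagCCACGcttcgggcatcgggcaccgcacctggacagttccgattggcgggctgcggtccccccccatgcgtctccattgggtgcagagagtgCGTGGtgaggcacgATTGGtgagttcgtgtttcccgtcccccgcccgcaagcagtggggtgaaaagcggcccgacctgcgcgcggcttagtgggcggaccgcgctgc
Dnajc3: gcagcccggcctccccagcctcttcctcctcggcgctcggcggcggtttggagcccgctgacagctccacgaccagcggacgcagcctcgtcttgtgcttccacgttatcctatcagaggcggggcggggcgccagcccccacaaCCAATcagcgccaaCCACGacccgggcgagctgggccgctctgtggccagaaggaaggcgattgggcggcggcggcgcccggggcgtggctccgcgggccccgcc
Hspa5 and Dnajc3 hold 1 copy each, in the gene's direction. Hsp90b1 holds 2, 1 in each direction.

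**Figure D3:**
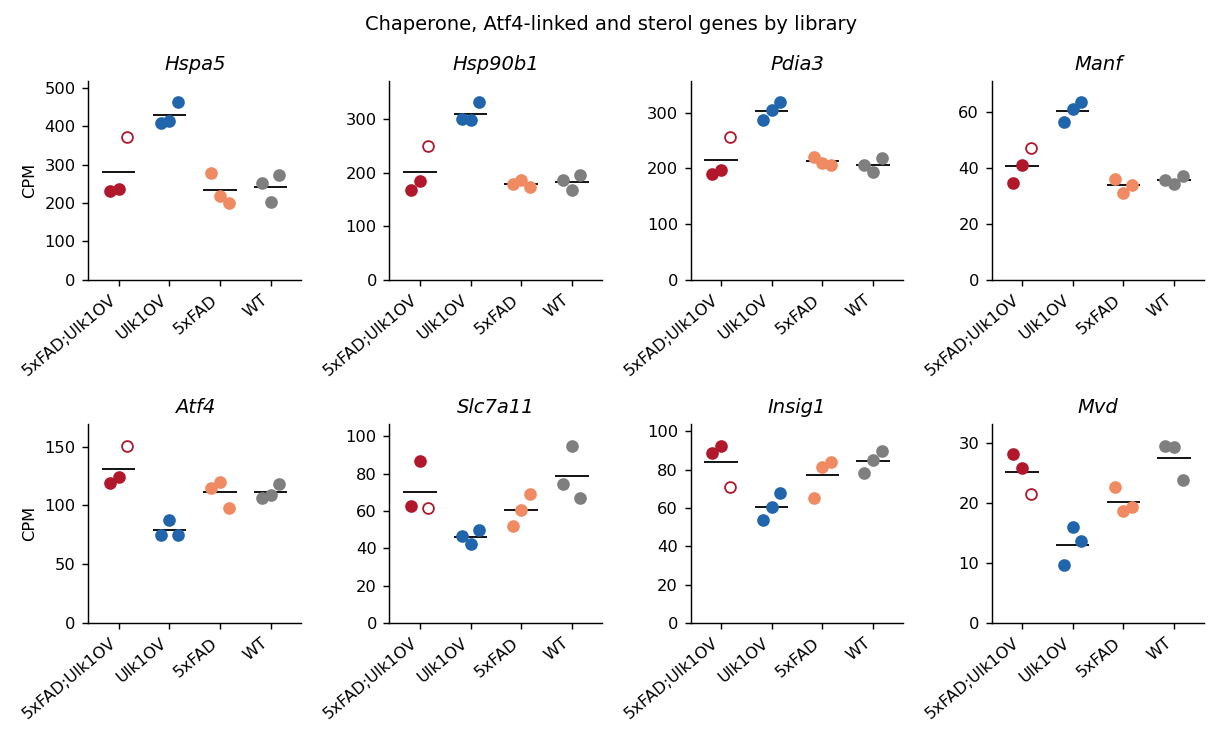
CPM of 4 ER chaperone genes, Atf4 and its target Slc7a11, and 2 sterol genes in each library (points), with the group mean over 3 libraries as a line; the open point is the library labelled 5xFAD;Ulk1OV replicate 3. The 3 Ulk1OV libraries lie highest in the 4 chaperone genes and lowest in Atf4.

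Cytosolic heat shock proteins gave fewer calls, also downward. Of 19 tested 2 fell with all libraries (median -0.14) and 5 without the library labelled replicate 3 (median -0.20), with 0 and 4 after the correction, and 0 rose in any of these. Hspa8, the constitutive HSC70, had 1690, 1680 and 2140 CPM in 5xFAD;Ulk1OV and 2280, 2540 and 2960 CPM in Ulk1OV. Hsp90aa1 had 1190, 1090 and 1380 CPM in 5xFAD;Ulk1OV and 1560, 1700 and 2060 CPM in Ulk1OV. In both genes the groups did not overlap, and both fell in both fits. After the correction both passed without the library labelled replicate 3 and not with it.

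Some genes linked to ATF4, the transcription factor of amino acid and mitochondrial stress, rose. Of 19 tested 4 rose with all libraries (median 0.25) and 6 without the library labelled replicate 3 (median 0.20), 0 fell, and 2 and 3 rose after the correction. Atf4 itself had 119, 124 and 151 CPM in 5xFAD;Ulk1OV and 75.2, 87.4 and 75.2 CPM in Ulk1OV, groups that did not overlap. It rose by 0.73 ± 0.11 with all libraries (SE, adjusted p = 0.014) and by 0.63 ± 0.10 without the library labelled replicate 3 (SE, adjusted p = 0.00789). Slc7a11, the cystine importer, had 62.9, 86.7 and 61.5 CPM in 5xFAD;Ulk1OV and 46.7, 42.2 and 49.6 CPM in Ulk1OV. Ddit4, an inhibitor of mTORC1 signalling, had 108, 97.0 and 106 CPM in 5xFAD;Ulk1OV and 52.2, 70.1 and 43.5 CPM in Ulk1OV. Both rose in both fits, but Ddit4 did not pass after the correction (adjusted p = 0.0667 and 0.0989), whereas Slc7a11 did.

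Genes of the mitochondrial genome fell where they passed the test. Of 13 protein genes of the mitochondrial genome 7 fell with all libraries (median -0.60) and 8 without the library labelled replicate 3 (median -0.79), and 3 and 4 fell after the correction. All genes of the mitochondrial genome took 4.17%, 4.03% and 5.97% of the counts in 5xFAD;Ulk1OV and 6.40%, 8.76% and 7.19% in Ulk1OV, shares that did not overlap. mt-Co1, a catalytic subunit of cytochrome oxidase, had 12100, 11700 and 17400 CPM in 5xFAD;Ulk1OV and 19700, 27200 and 23300 CPM in Ulk1OV, and fell by 0.96 ± 0.14 without that library (SE, adjusted p = 0.00541). mt-Nd6 had 767, 715 and 938 CPM in 5xFAD;Ulk1OV and 1560, 1830 and 1660 CPM in Ulk1OV. Its opposite strand carries mt-Nd5, and whether the counting used strand is not known, so reads of the pair cannot be told apart.

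Among 59 nuclear respiratory chain subunits 9 rose and 0 fell with all libraries (median 0.12), and again 9 and 0 without the library labelled replicate 3 (median 0.13). After the correction the counts were 5 rising and 5 falling, then 7 and 5, so the one-sided pattern did not hold under it. Of 17 ATP synthase subunits 4 rose in each fit and 3 after the correction. Atp5k, the small subunit e, had 68.0, 65.5 and 69.7 CPM in 5xFAD;Ulk1OV and 10.4, 15.7 and 7.90 CPM in Ulk1OV, and rose by 2.58 ± 0.33 with all libraries (SE, adjusted p = 0.0129). Here the library labelled replicate 3 lay with the other 5xFAD;Ulk1OV libraries. Atp5k had 38.3, 14.6 and 14.1 CPM in 5xFAD and 63.0, 64.8 and 68.8 CPM in WT, the opposite order. Atp5g3, a subunit c gene, had 276, 261 and 250 CPM in 5xFAD;Ulk1OV and 113, 159 and 105 CPM in Ulk1OV.

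Genes of cholesterol synthesis rose in part. Of 23 tested 3 rose with all libraries (median 0.28), 10 without the library labelled replicate 3 (median 0.37), and 2 and 6 after the correction, with 0 falling. Mvd, an enzyme of the mevalonate pathway, had 28.2, 25.9 and 21.5 CPM in 5xFAD;Ulk1OV and 9.61, 16 and 13.6 CPM in Ulk1OV, and rose by 1.06 ± 0.18 without that library (SE, adjusted p = 0.00894). Insig1, the sterol sensor of the pathway, had 88.9, 92.6 and 70.7 CPM in 5xFAD;Ulk1OV and 53.7, 60.4 and 67.8 CPM in Ulk1OV, and rose by 0.60 ± 0.12 without that library (SE, adjusted p = 0.0156). In both genes the groups did not overlap, and both rose in both fits, with and without the correction. Sqle, a synthesis enzyme, and the regulator Srebf2 rose without the library labelled replicate 3, by 0.42 and 0.45, of which Srebf2 did not pass after the correction.

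The autophagy genes, the pathway that ULK1 starts, gave calls in both directions before the correction. Among all genes tested, 3.67% rose and 2.43% fell with all libraries, and 5.38% and 3.59% without the library labelled replicate 3. Of 39 autophagosome formation genes 2 rose and 3 fell with all libraries (median -0.05) and 2 rose and 4 fell without the library labelled replicate 3 (median -0.07). After the correction 2 rose and 0 fell with all libraries, and 1 rose and 0 fell without it. Map1lc3a, an LC3 protein of the autophagosome membrane, had 181, 173 and 172 CPM in 5xFAD;Ulk1OV and 102, 141 and 93.3 CPM in Ulk1OV. Atg4d, an LC3-processing protease, had 23.9, 23.2 and 27.4 CPM in 5xFAD;Ulk1OV and 17.8, 16.7 and 13.9 CPM in Ulk1OV. Rb1cc1, which encodes the ULK1 partner FIP200, had 94.7, 91.1 and 106 CPM in 5xFAD;Ulk1OV and 143, 119 and 137 CPM in Ulk1OV, and fell by 0.50 ± 0.11 without that library (SE, adjusted p = 0.0162). The groups did not overlap in any of the 3, but after the correction Map1lc3a and Rb1cc1 no longer passed in either fit (adjusted p = 0.239 and 0.408 for Map1lc3a and 0.16 and 0.11 for Rb1cc1, with all libraries and without the library labelled replicate 3). Atg4d passed after the correction with all libraries (adjusted p = 0.0421) but not without that library (adjusted p = 0.072).

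Of 42 lysosomal genes 3 rose with all libraries (median 0.04), and 8 rose and 1 fell without the library labelled replicate 3 (median 0.09). Besides Ctsd these included Npc2, a cholesterol carrier of the lysosome, and Atp6v0c, a proton pump subunit. Npc2 had 95.7, 104 and 103 CPM in 5xFAD;Ulk1OV and 67.7, 82.8 and 71.2 CPM in Ulk1OV, and rose in both fits with and without the correction. Grn, the progranulin gene, rose by 0.38 without the library labelled replicate 3 (adjusted p = 0.0455) and did not pass after the correction. After it 3 rose and 1 fell with all libraries, and 4 rose and 2 fell without it.

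Activity-dependent genes, which neurons switch on soon after firing, rose in part. Of 28 tested 5 rose and 0 fell with all libraries (median 0.43), and 9 rose and 1 fell without the library labelled replicate 3 (median 0.51). Junb had 94.3, 91.0 and 58.2 CPM in 5xFAD;Ulk1OV and 41.1, 41.6 and 36.6 CPM in Ulk1OV. Egr4 had 36.2, 52.9 and 34.2 CPM in 5xFAD;Ulk1OV and 20.3, 15.1 and 12.6 CPM in Ulk1OV. The groups did not overlap in these transcription factor genes, and both rose in both fits. Inhba, an activin subunit gene induced by activity, was the member that fell, with 4.69, 6.29 and 10.3 CPM in 5xFAD;Ulk1OV and 15.1, 10.1 and 15.4 CPM in Ulk1OV. After the correction 0 were called with all libraries, and 5 rose, Junb among them and Egr4 not, and 2 fell without the library labelled replicate 3. Among 34 synapse genes 2 rose and 0 fell in each fit, beside 3.67% and 5.38% of all genes tested that rose. Among 22 oligodendrocyte and myelin genes 0 were called in either fit. After the correction 0 synapse genes were called with all libraries and 3 rose without the library labelled replicate 3, and 0 oligodendrocyte genes were called.

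Markers of meningeal fibroblasts had the highest median of the lists. Of 19 meningeal fibroblast markers 9 rose with all libraries (median 1.42) and 15 without the library labelled replicate 3 (median 1.78), with 6 and 13 after the correction, and 0 fell. The summed level of the 19 was 3980, 3980 and 1640 CPM in 5xFAD;Ulk1OV and 950, 997 and 848 CPM in Ulk1OV. Ptgds, a prostaglandin D synthase of the meninges, made up most of each of these sums. It had 3260, 3200 and 1280 CPM in 5xFAD;Ulk1OV and 618, 641 and 537 CPM in Ulk1OV, and rose by 2.45 ± 0.26 without the library labelled replicate 3 (SE, adjusted p = 0.00129). Aldh1a2, which makes retinoic acid, had 47.8, 43.4 and 16.8 CPM in 5xFAD;Ulk1OV and 6.05, 9.26 and 8.01 CPM in Ulk1OV. Col1a1, a fibrillar collagen gene, had 16.9, 26.6 and 7.35 CPM in 5xFAD;Ulk1OV and 5.55, 5.37 and 2.89 CPM in Ulk1OV. Dcn, also a fibroblast marker, had 114, 92.3 and 54.4 CPM in 5xFAD;Ulk1OV and 31.8, 90.1 and 92.6 CPM in Ulk1OV. Its groups overlapped (edgeR adjusted p = 0.693 with all libraries and 0.408 without the library labelled replicate 3). In Ptgds, Aldh1a2 and Col1a1 the library labelled replicate 3 lay between the others and the Ulk1OV libraries.

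The same library order was seen outside the list. Kcne4, a potassium channel subunit gene, had 6.26, 7.19 and 0.779 CPM in 5xFAD;Ulk1OV and 0.749, 0.590 and 0.218 CPM in Ulk1OV. Slc6a13 and Slc6a20a, a GABA and a proline transporter gene, rose by 2.45 and 2.5 without the library labelled replicate 3. Of 20 endothelial markers 2 and 3 rose in the 2 fits, and of 12 mural cell markers 1 and 3. After the correction 1 of each rose in each fit. Vtn, the vitronectin gene of pericytes, had 93.6, 113 and 43.4 CPM in 5xFAD;Ulk1OV and 23, 29.6 and 26.2 CPM in Ulk1OV. The part of these cell types in the other results was not tested. In 5xFAD and WT the summed fibroblast markers were 1020 to 1640 CPM and 1870 to 3600 CPM.

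Choroid plexus and ciliated cell genes moved with single libraries. The 18 choroid plexus markers summed to 275, 641 and 569 CPM in 5xFAD;Ulk1OV and 6110, 546 and 326 CPM in Ulk1OV, so 1 Ulk1OV library stood far above the rest. None of the 18 was called in either fit, before or after the correction, and 18 had a negative log2 fold change in each, with a median of -1.45 with all libraries. Without Ulk1OV replicate 1 the median was 0.25, the other sign. Motile cilium genes summed to 202, 171 and 357 CPM in 5xFAD;Ulk1OV and 365, 279 and 358 CPM in Ulk1OV, and the library labelled replicate 3 lay with Ulk1OV. Of 20 tested 0 were called with all libraries, and 5 fell without it (median -1.01). After the correction 0 and 3 fell. Plin4, a lipid droplet gene, and Hif3a, a hypoxia-inducible factor subunit gene, also fell without that library. Plin4 had 5.76 and 10.4 CPM in 5xFAD;Ulk1OV replicates 1 and 2 and 48.1 CPM in the library labelled replicate 3, against 54.4, 53.9 and 33.3 CPM in Ulk1OV. Hif3a had 5.59, 5.01 and 17.5 CPM in 5xFAD;Ulk1OV and 22.1, 21.4 and 18.4 CPM in Ulk1OV.

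Neuronal cell-type markers gave calls in the interneuron and pyramidal cell lists before the correction. Among all genes tested, 3.67% rose and 2.43% fell with all libraries. Without the library labelled replicate 3 these shares were 5.38% and 3.59%. Gad2, a GABA-synthesizing enzyme of interneurons, had 159, 171 and 210 CPM in 5xFAD;Ulk1OV and 308, 224 and 362 CPM in Ulk1OV. It was 1 of 3 interneuron markers of 18 that fell without the library labelled replicate 3 (adjusted p = 0.0473), and its adjusted p was 0.0578 with all libraries. With all libraries 1 of the 18 fell, and after the correction 0 of the 18 were called in either fit. Of 14 dentate gyrus markers 0 were called in either fit, and of 19 pyramidal cell markers 2 rose in each. After the correction the pyramidal counts were 1 with all libraries and 0 without the library labelled replicate 3, and the dentate gyrus counts stayed at 0.

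**Figure D4:**
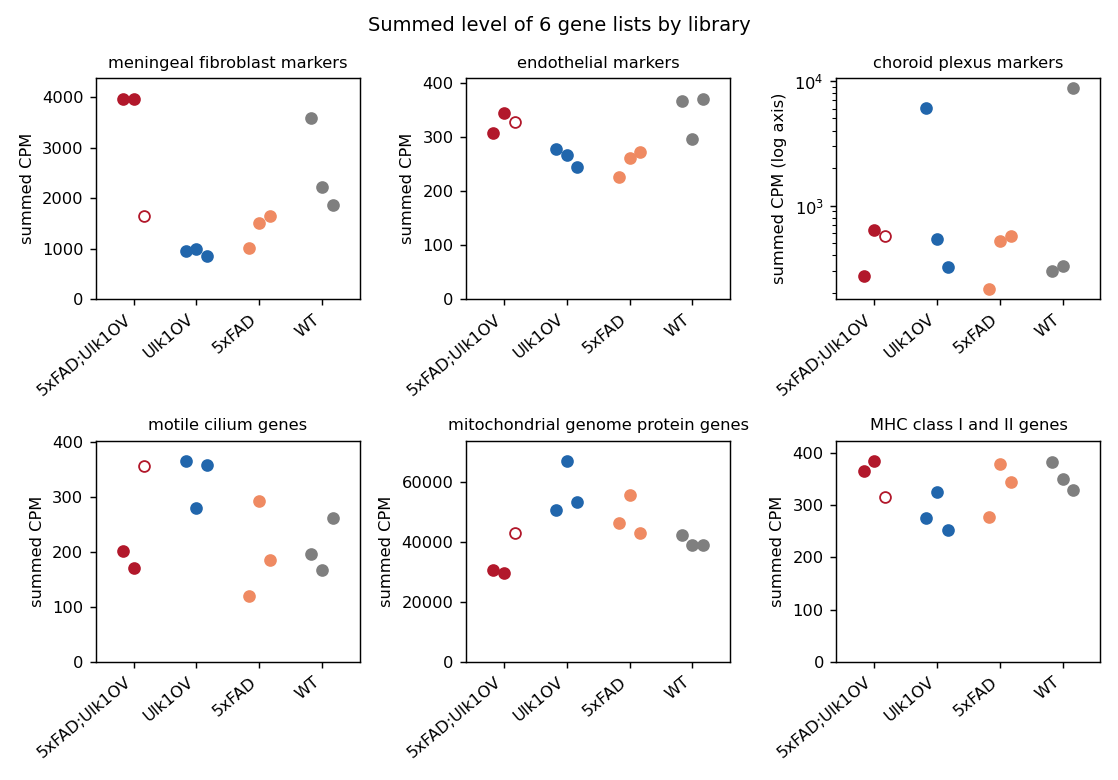
Summed CPM of 6 gene lists in each library (points); the open point is the library labelled 5xFAD;Ulk1OV replicate 3, and the choroid plexus panel has a log axis. In fibroblast markers 2 of the 5xFAD;Ulk1OV libraries, at 3980 CPM each and mostly Ptgds, stand above the Ulk1OV libraries. In the choroid plexus panel 1 Ulk1OV library and 1 WT library stand above the rest.

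The 5xFAD difference on the Ulk1OV background was then set beside the 5xFAD difference without it. In 5xFAD against WT edgeR called 0 genes with all libraries (2139 at an unadjusted p under 0.05). DESeq2 called 150, and edgeR with no filter on low counts called 551. When the library labelled 5xFAD;Ulk1OV replicate 3 was left out of the shared estimate of spread, edgeR called 3 genes (Prnp, App and Lamr1-ps1). That library was set aside by its App and Prnp, and it also lacked reads of Lamr1-ps1. Leaving it out took the SE of Prnp in 5xFAD against WT from 0.225 to 0.1, so these 3 calls are a description. The 2 differences share no library, though they share the estimate of spread. Of the 632 genes that rose on the Ulk1OV background with all libraries, 25 (3.96%) also had a positive log2 fold change in 5xFAD against WT, and of the 419 that fell 16 (3.82%) also had a negative one, beside 29.9% with matching signs among all genes tested. Without the library labelled replicate 3, 62 of 947 (6.55%) and 63 of 632 (9.97%) matched, beside 31.6% of all genes tested. Most genes called on the Ulk1OV background thus had the opposite sign in 5xFAD against WT. The GC trend also ran in opposite directions, with medians of 0.24 and -0.15 in the bin of highest GC content with all libraries. The counts of signs here and below were not repeated after the correction for GC content and length. The part of the trend in them was not tested.

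App, Prnp and microglial genes were among the few with matching signs. Of the 1051 genes called with all libraries, 528 also had an unadjusted p under 0.05 in 5xFAD against WT, 523 of them in the opposite direction and 5 in the same. The 5 were Prnp, Lamr1-ps1, Ccl6, Cst7 and Gm6304. Of the 1579 genes called without the library labelled replicate 3, 654 also had such a p, 642 of them in the opposite direction and 12 in the same. The 12 were App, Prnp, Lamr1-ps1, Cst7, Ccl6, Trem2, Cd68, Fdft1, Stard4, Rps26-ps1, Deaf1 and Gm38255. App and Prnp were also the genes by which the library was set aside. In 5xFAD against WT the App libraries had 2670, 2350 and 2570 CPM in 5xFAD and 1370, 1410 and 1470 CPM in WT. Cst7 differed by 4.59 on the Ulk1OV background without that library and by 4.54 ± 0.66 in 5xFAD against WT (SE), with 7.40, 4.72 and 4.36 CPM in 5xFAD and 0.235, 0 and 0.454 CPM in WT. With all libraries the difference of the 2 differences was -0.27 ± 0.26 for App and -0.36 ± 0.31 for Prnp (SE, adjusted p = 0.53 and 0.482). Without the library labelled replicate 3, Clec7a differed by 1.17 ± 0.35 on the Ulk1OV background and by 2.14 ± 0.34 in 5xFAD against WT (SE), a gap of -0.97 that did not pass (adjusted p = 0.207).

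The test of the difference itself called 1171 genes as higher (6.8% of those tested) and 1026 as lower (5.96%) on the Ulk1OV background with all libraries. Without the library labelled replicate 3 it called 1455 (8.27%) and 1084 (6.16%). After the correction for GC content and length the split was 406 higher and 496 lower with all libraries, and 540 and 675 without that library. The test of the difference contains the difference on the Ulk1OV background by which genes were called above, so an overlap is in part built in. Without the library labelled replicate 3 it called 2539 of the 17603 genes tested. Of the 1579 genes called on the Ulk1OV background without that library, 1396 were called in this test. Ctsd was one of them, with a log2 fold change of 0.71 on the Ulk1OV background and 0.03 in 5xFAD against WT (difference 0.68, adjusted p = 0.0162). Hsp90b1 was another, at -0.81 and -0.04 (difference -0.77, adjusted p = 0.00499), as was Atf4, at 0.63 and -0.02 (difference 0.65, adjusted p = 0.0117). Junb (1.24 and -0.62) and Aldh1a2 (2.56 and -0.82) had opposite signs. The count of this test also rested on single libraries. From all libraries it came to 974 without Ulk1OV replicate 3, 1145 and 1008 without 5xFAD;Ulk1OV replicates 1 and 2, 1361 and 1246 without 5xFAD replicates 2 and 3, and 1048 and 1255 without WT replicates 1 and 2. With the library labelled replicate 3 already left out it came to 821 and 612 without 5xFAD;Ulk1OV replicates 1 and 2, 1362 without Ulk1OV replicate 3, 1686 without 5xFAD replicate 3, and 1353 and 1576 without WT replicates 1 and 2.

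**Figure D5:**
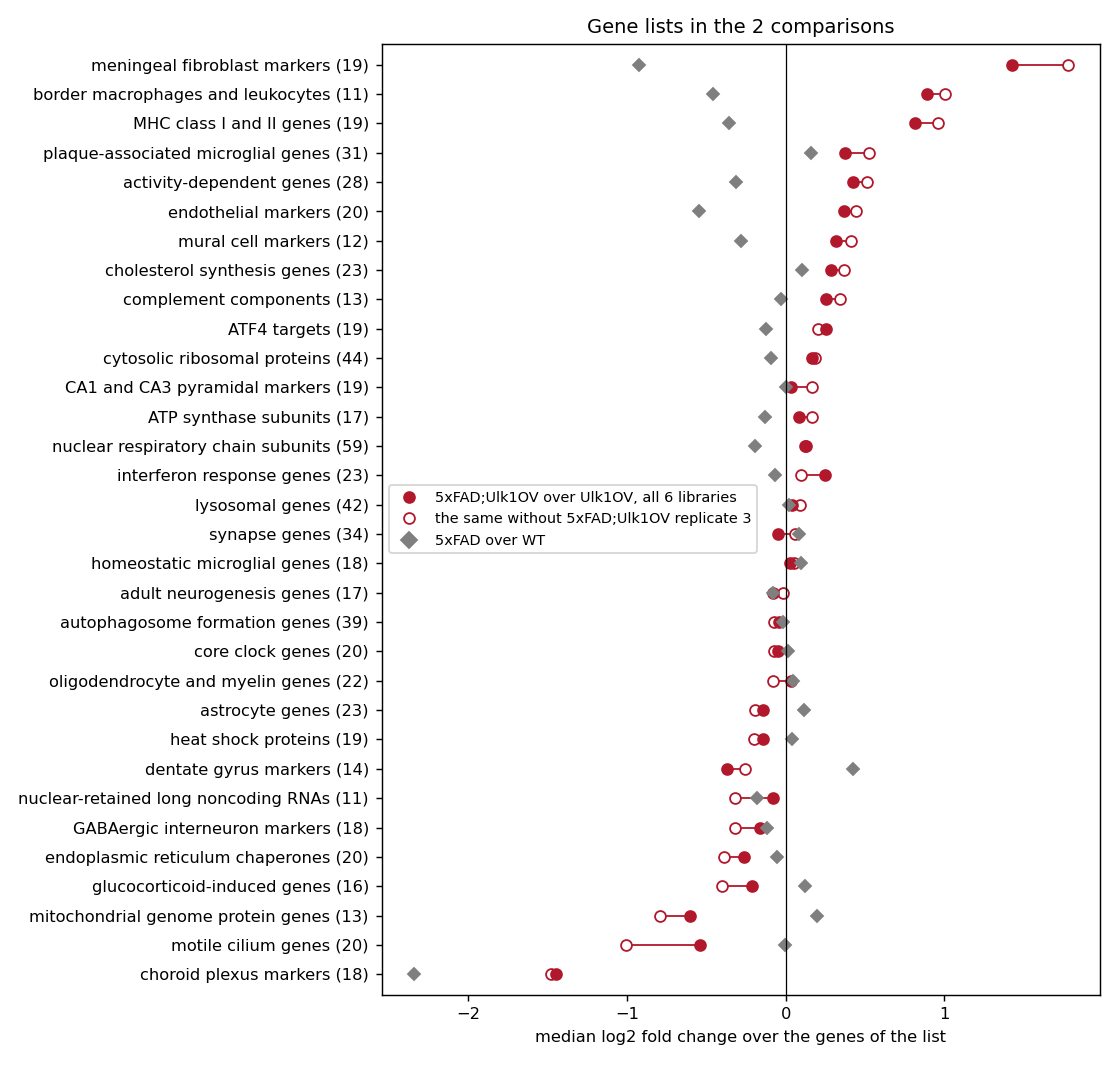
Median log2 fold change (x axis) of 32 gene lists, with the number of genes tested in brackets, for 5xFAD;Ulk1OV over Ulk1OV with all libraries (filled red) and without the library labelled replicate 3 (open red), and for 5xFAD over WT (grey diamonds). Fibroblast markers stand at 1.42 and 1.78 in red and at -0.92 in grey. Plaque-associated microglial genes lie above 0 in both comparisons, at 0.16 in grey, as do other lists such as cholesterol synthesis genes.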

How the data were processed

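The 12 libraries of mouse hippocampal RNA were prepared with a NEBNext Ultra kit per the labels' protocols. The deposited values are raw read counts per gene, made by the authors with HISAT2 and featureCounts on mm10, per the submitters' processing notes, which also name FastQC, Trim Galore, SAMtools and DESeq2. Annotation and strand setting: not given in the sources used here. Of 54427 genes listed, 24 symbols had turned into dates.

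Genes with low counts were removed by filterByExpr of edgeR 4.0.16 (R 4.3.3), leaving 17227 with 12 libraries and 17603 with 11. The counts were scaled by TMM and fitted with 1 mean per group, so that the 4 groups share the estimate of spread. A standard error is the absolute log2 fold change over the root of the F statistic. For single values, 3 libraries against 3 allow an exact two-sided permutation p no lower than 0.1. Positions, lengths and GC content come from GENCODE M21 on GRCm38, for 99.3% of tested genes. The correction for GC content and length subtracts each library's loess trend (span 0.4). The scripts were tested on simulated data.

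Members and lists were chosen with earlier results of these data known. Genes named were the 15 called genes of largest fold change in each direction at a mean of at least 1 CPM, the 4 with the smallest p in each list and 5 per direction of the difference test; the text shows those that illustrate the lists and adds further list members chosen after their values were seen. A few genes under that rule are left out here. Replicate numbers did not pair the samples (correlations of -0.0662, -0.0733 and 0.0548). Alternatives were DESeq2 1.42.0, its size factors, no filter, a replicate block, only the libraries compared, the correction, and each library left out. The floor (3 counts) covers counting error only, while standard errors carry the spread between libraries.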

Additional observations from a re-analysis of the deposited data

Results flagged for a closer look

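Genes with the largest log2 differences between the 5xFAD effect on the Ulk1OV background and the 5xFAD effect in 5xFAD against WT stood out by edgeR's test of that difference, which they passed whether or not the library labelled 5xFAD;Ulk1OV replicate 3 was kept. Without it the difference was 4.91 for Kcne4 (3.72 on the Ulk1OV background and -1.20 in 5xFAD against WT), 4.57 for the asialoglycoprotein receptor gene Asgr1 and 6.78 for Tmem254c. It was 4.84 for Gm9844 and 5.26 for the microRNA gene Gm23935. The processed pseudogenes Gm4865, Gm12430, Gm18101, Gm9118 and Gm4950 went the other way, at -4.12, -3.56, -3.15, -2.88 and -2.53. Reads of pseudogenes can be split with their parent genes, so these values are uncertain. All 10 moved in opposite directions in the 2 comparisons. Of 102 genes followed through the processing alternatives, 65 passed the same test in both fits, and 63 of these had opposite signs. Among all genes tested it called 2197 of 17227 with all libraries and 2539 of 17603 without that library. The 10 were picked by this test. Many of the 102 were picked by their values on the Ulk1OV background, which the difference contains. These counts were thus in part built in and are a description. The libraries labelled WT replicates 1 and 2 and 5xFAD;Ulk1OV replicates 1 and 2 lay together on the first principal component (-29.1, -22.1, -29.1 and -30.5), which held 24.3% of the variance, while the 3 Ulk1OV libraries lay at 24.1 to 41.3. Their part in these differences was not tested.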

How the results depend on the processing

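The number of genes called between 5xFAD;Ulk1OV and Ulk1OV, 1051 with all libraries, was 2027 with DESeq2, 2097 with no filter on low counts, 430 with only the 6 libraries (324 rising, 106 falling), 372 after the correction for GC content and length, and 0 to 1629 with 1 library left out. Once the library labelled 5xFAD;Ulk1OV replicate 3 was left out it was 1579, and 2466, 2653, 1395 and 716 under the same alternatives, 728 with a replicate block and 17 to 2199 with 1 further library left out; where 1 library of a group was left, it was assumed to vary like the other groups. The difference of the differences, 2197 and 2539 genes, gave 902 and 1215 after the correction, 974 to 2596 and 612 to 3347 with 1 library left out, and 2259 and 1758 with a replicate block. The block gave 1206 genes with all libraries, and replicate numbers did not pair the samples.

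Of 102 genes followed, 2 changed sign, both far from the threshold. Ulk1 (0.03 and 0.11 in the 2 fits) came to -0.193 and -0.161 after the correction, and with all libraries ranged from -0.02 to 0.119 with 1 library left out. Thy1 (-0.06 with all libraries) ranged from -0.097 to 0.002 with 1 left out. Without the library labelled replicate 3 Thy1 was 0.00, and from there -0.005 with DESeq2 and with its size factors, -0.007 with no filter, -0.011 with the replicate block, -0.242 after the correction and -0.034 to 0.016 with 1 further library left out. The 102 include genes with no call to lose, with all libraries App, Clec7a, Hspa5 and Gad2 among them. After the correction 36 of the genes that had a call lost it with all libraries, and 26 without the library labelled replicate 3. With only the libraries compared 28 and 8 lost it, and with the replicate block 4 and 23, in the second fit Cd68, Cd74, Serping1, Dnajb9, Xbp1, Ddit4, Srebf2, Sqle, Fdft1, Stard4, Atg4d, Map1lc3a, Grn, Gad2 and Plin4 among them. The cause of these changes was not tested.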

Other observations

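Further values not described above came from glucocorticoid-induced and clock genes. Of 16 glucocorticoid-induced genes 1 rose and 1 fell with all libraries, and 1 rose and 3 fell without the library labelled 5xFAD;Ulk1OV replicate 3 (median -0.40). After the correction for GC content and length 0 rose, and 2 and 4 fell. Of 20 core clock genes 1 rose with all libraries, and 2 rose and 1 fell without that library, while after the correction 0 were called with all libraries and 1 fell without it. Of 44 cytosolic ribosomal proteins 2 rose in each fit, with medians of 0.16 and 0.19, and after the correction 2 rose in each while 1 and 2 fell. Of 24 astrocyte genes 22 were tested with all libraries and 0 were called, and 1 of 23 rose and 1 fell without that library, while after the correction 0 were called with all libraries, and 1 rose and 2 fell without it. Rps26-ps1, a ribosomal protein pseudogene whose reads can be split with its parent, had 44.1 CPM in each of 5xFAD;Ulk1OV replicates 1 and 2 and 1.73 CPM in the library labelled replicate 3, against 3.87, 2.24 and 0.654 CPM in Ulk1OV.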
